A study of Mus musculus with 4 samples.

Results

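The mitochondrial solute carriers of the SLC25 family were followed in brown adipose tissue by RNA-seq. Members were chosen by name: every protein-coding gene of the GENCODE vM21 annotation whose symbol starts with Slc25a and a number, without Slc25a1, Slc25a20 and Slc25a44. This gave 44 carriers of 21963 protein-coding genes and 52022 genes of any kind with a transcript in the data. KO libraries (KO 1 and KO 2) came from males without ATF4 in their thermogenic adipocytes and WT libraries (WT 1 and WT 2) from their wild-type counterparts. All 4 libraries came from male mice with free access to food, after 12 weeks on a 60% high fat diet. ATF4 is a transcription factor of the integrated stress response. Neither the labels nor the protocols name the promoter that drove the deletion or the exons removed, and other cells of the tissue are not said to lack ATF4. Library names start with S2 (KO 2 and WT 1) or S1 (KO 1 and WT 2), and the labels do not explain the prefix, so the carriers were also compared between prefixes.

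SLC25 carriers are small proteins of the mitochondrial inner membrane, with a few in the outer membrane or the peroxisome. Most exchange or import particular solutes, such as ADP for ATP, phosphate, cofactors, amino acids or iron, across a membrane that is otherwise closed to these solutes. Brown adipocytes hold many mitochondria and release heat through Ucp1, the uncoupling protein, which belongs to the same protein family under another symbol.

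Total estimated counts were 25985367 and 30405113 in KO 1 and KO 2, and 32714456 and 34813870 in WT 1 and WT 2. Markers of the brown adipocyte (8 genes) summed to between 11527 and 13227 TPM per library, where TPM is transcript abundance scaled to a total of 1e+06 per library. Of these markers Dio2 and Prdm16 were lower in both KO libraries and Cox7a1 was higher. Dio2 was at 5.69 and 12.1 TPM in KO 1 and KO 2, against 19.3 and 14.9 TPM in WT 1 and WT 2. Atf4 itself was at 14.1 and 16.0 TPM in KO 1 and KO 2 and at 18.2 and 71.7 TPM in WT 1 and WT 2, so both WT libraries were above both KO libraries, WT 1 by little. The libraries also differed in other cell types. The 12 skeletal muscle markers, all of them higher in both KO libraries, summed to 2052 and 1923 TPM in KO 1 and KO 2, against 3.12 and 3.02 TPM in WT 1 and WT 2. Of these markers Myh4 was at 0 in both WT libraries, Myh2 at 0 in WT 1 and Pvalb at 0 in WT 2. The 5 fibroblast markers were all lower in both KO libraries. They summed to 116 and 173 TPM in KO 1 and KO 2 and to 190 and 286 TPM in WT 1 and WT 2. Of 5 macrophage markers 2 were lower too, but the sums of all 5 overlapped. These were 53.2 and 166 TPM in KO 1 and KO 2 and 220 and 161 TPM in WT 1 and WT 2. Among all 15643 genes tested, 13.1% were lower in both KO libraries and 13.2% higher, by scaled counts. The part of these cell types in the carriers' differences between KO and WT was not tested. In a bulk sample, fewer cells of a type and less RNA per cell cannot be told apart.

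A small set of carriers held most of the family's transcript abundance. Levels per gene sum all of its annotated transcripts, coding or not. Summed over the 44 carriers the level was 1768 and 2307 TPM in KO 1 and KO 2, against 2179 and 2120 TPM in WT 1 and WT 2. The 4 highest carriers held 55.0% of the mean sum, the 6 highest 71.4% and the 10 highest 86.7%. Of the 44, 7 reached a mean of 100 TPM, 20 reached 10 TPM and 36 reached 1 TPM. For comparison, Ucp1 alone had a mean of 4149 TPM, above the mean sum of all 44 carriers, 2093 TPM. The KO 1 sum was the lowest of the 4. In KO 1, 38.9% of gene counts came from genes on the mitochondrial chromosome, against 33.0 to 34.1% in the other libraries. Rescaled to a total of 1e+06 TPM over nuclear genes, the KO 1 sum was still the lowest, at 3497 and 4468 in KO 1 and KO 2, against 4205 and 4020 in WT 1 and WT 2.

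**Figure D1:**
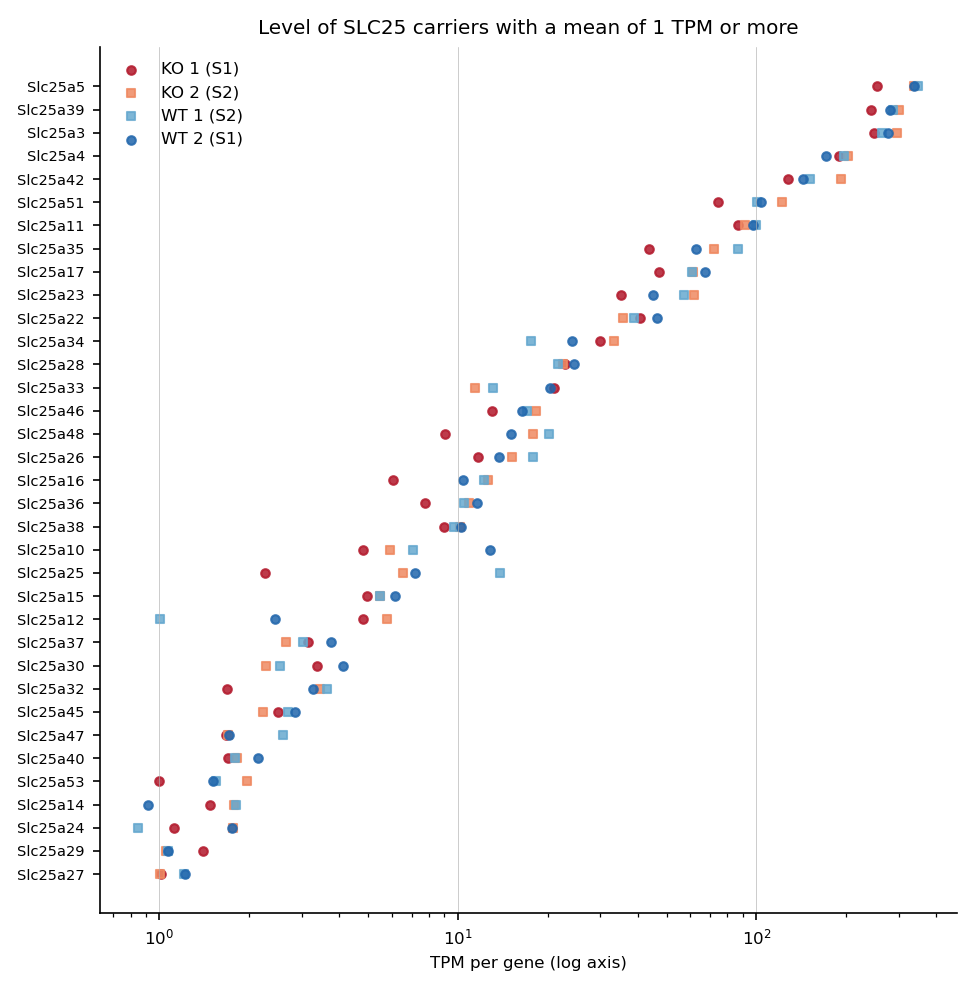
Level of carriers with a mean of at least 1 TPM, in descending order; each point is 1 library, on a log axis of TPM per gene, with S1 libraries as circles and S2 libraries as squares. The carriers span from over 300 TPM to about 1 TPM, and within most carriers the libraries lie much closer together than the carriers do.

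The ADP/ATP carriers held 24.3% of the family's TPM. Slc25a5 (ANT2, chromosome X, 36795651 to 36798807, plus strand, GRCm38), the form found in most tissues, was at 255 and 338 TPM in KO 1 and KO 2 and at 348 and 337 TPM in WT 1 and WT 2. It had the highest mean of the family, 15.3% of the sum, and ranked 275 among all genes. Slc25a4 (ANT1, chromosome 8, 46206797 to 46211284, minus strand), the form known for heart and skeletal muscle, was at 189 and 203 TPM in KO 1 and KO 2 and at 197 and 171 TPM in WT 1 and WT 2. Slc25a5 was therefore above Slc25a4 in every library. The ratio of Slc25a4 to Slc25a5 in TPM was 0.742 and 0.600 in KO 1 and KO 2, against 0.565 and 0.508 in WT 1 and WT 2, and the genotypes did not overlap. The skeletal muscle markers moved with this ratio as given above, and their part in it was not tested. Slc25a31, the testis form, was listed at 0 TPM in 3 libraries. Slc25a5 has many processed pseudogenes, and 67.1% of the 31-base stretches of its leading transcript also occur in 13 other genes. Those genes summed to at most 0.649 TPM in any library, and the leading Slc25a4 and Slc25a5 transcripts shared 0 such stretches. That sum is itself kallisto's division of reads that fit several genes. The effect of the sharing on the Slc25a5 level was not tested.

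Slc25a3 (chromosome 10, 91116574 to 91124059, minus strand) imports the phosphate used to make ATP. It was at 247 and 296 TPM in KO 1 and KO 2 and at 263 and 277 TPM in WT 1 and WT 2, or 12.9% of the family. Its place in the order depended on the scale. It was among the 4 carriers of highest mean TPM but stood at place 8 by counts per kilobase of the longest transcript, which for Slc25a3 is a retained-intron form of 4039 bases. Its 3 coding transcripts held 53.7% and 48.2% of the gene's TPM in KO 1 and KO 2 and 53.6% and 55.4% in WT 1 and WT 2.

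Slc25a3 makes a pair of coding forms by using either exon 3A, known from heart and skeletal muscle, or exon 3B, found in most tissues. The exons are shown because the libraries differed in the estimated share of each among the coding transcripts. The letters also show how far reads can tell the exons apart. Which exon the gene's other transcripts hold was not examined. Capitals mark bases not matched between the exons in their alignment, which matched 77 bases, 61.6% of exon 3A. Both are read 5′ to 3′ on the minus strand of GRCm38, exon 3A at chr10:91122207-91122331 and exon 3B at chr10:91121922-91122043.
Slc25a3 exon 3A: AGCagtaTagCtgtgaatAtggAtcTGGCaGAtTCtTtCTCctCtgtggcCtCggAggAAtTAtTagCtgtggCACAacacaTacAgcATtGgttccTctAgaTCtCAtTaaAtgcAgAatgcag
Slc25a3 exon 3B: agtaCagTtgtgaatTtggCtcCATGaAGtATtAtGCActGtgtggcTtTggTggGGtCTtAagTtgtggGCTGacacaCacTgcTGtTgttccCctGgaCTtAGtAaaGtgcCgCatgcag

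The coding transcript with exon 3A was at 52.8 and 39.5 TPM in KO 1 and KO 2, against 28.4 and 28.3 TPM in WT 1 and WT 2. The coding transcripts with exon 3B summed to 79.9 and 103 TPM in KO 1 and KO 2, against 113 and 125 TPM in WT 1 and WT 2. Exon 3A thus took 39.8% and 27.7% of coding TPM in KO 1 and KO 2, against 20.2% and 18.5% in WT 1 and WT 2. Exon 3B was the more abundant form in every library, and the genotypes did not overlap for either form. The mean share of exon 3A was 33.8% ± 8.49 in KO and 19.3% ± 1.18 in WT (SD, n = 2 each), and an exact two-sided permutation test gave p = 0.333, the smallest that 2 libraries against 2 allow. The exons were picked for description after their values were seen. The skeletal muscle markers were higher in the same 2 libraries, KO 1 and KO 2, and their part in the share was not tested.

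**Figure D2:**
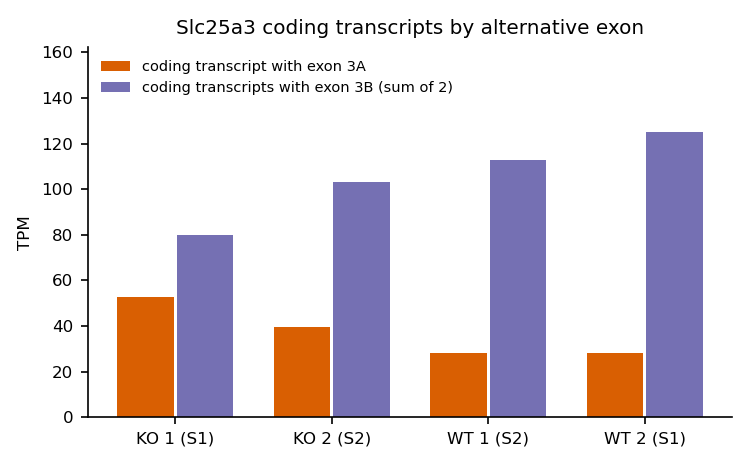
TPM of Slc25a3 coding transcripts in each library, split by alternative exon (bars: deposited TPM, summed over 2 transcripts for exon 3B). The exon 3A form is at 52.8 and 39.5 TPM in KO 1 and KO 2 and at 28.4 and 28.3 TPM in WT 1 and WT 2, and the exon 3B form is the higher bar everywhere.

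Carriers of cofactors and of nucleotides other than ADP and ATP made up the largest class by TPM, 30.5% of the family over 9 genes. Slc25a42, a carrier of coenzyme A, was at 127 and 193 TPM in KO 1 and KO 2 and at 151 and 143 TPM in WT 1 and WT 2. Much of this was not coding: its main coding transcript averaged 66.6 TPM, and a retained-intron transcript, Slc25a42-204, averaged 47.0 TPM. Slc25a51, which imports NAD+, was at 74.2 and 122 TPM in KO 1 and KO 2 and at 101 and 104 TPM in WT 1 and WT 2. In TPM, KO 1 was the lowest library and KO 2 the highest for both Slc25a42 and Slc25a51, so KO spanned both WT values on that scale. Slc25a17, the peroxisomal carrier of coenzyme A, FAD and NAD+, was at 47.2 and 61.2 TPM in KO 1 and KO 2 and at 60.8 and 67.5 TPM in WT 1 and WT 2. The pyrimidine nucleotide carriers Slc25a33 and Slc25a36 had means of 16.5 and 10.2 TPM, and Slc25a16, linked to coenzyme A, one of 10.3 TPM. Slc25a32, the folate and FAD carrier, averaged 3.01 TPM. Of the 31-base stretches of the leading Slc25a42 transcript, 5.62% also occur in other genes, 2623 in number, which summed to at least 31729 TPM in every library. For Slc25a51 it was 6.45%, in 4067 other genes with at least 42244 TPM. The effect of this sharing on the levels was not tested.

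Slc25a39 (chromosome 11, 102402985 to 102407946, minus strand), which brings glutathione into the matrix, was at 242 and 300 TPM in KO 1 and KO 2 and at 287 and 280 TPM in WT 1 and WT 2. Its relative Slc25a40 had a mean of 1.86 TPM, so nearly all of the class's 13.3% of family TPM was Slc25a39. Slc25a11, the oxoglutarate carrier of the malate-aspartate shuttle, was at 87.0 and 91.8 TPM in KO 1 and KO 2 and at 99.99 and 97.8 TPM in WT 1 and WT 2. Slc25a35, whose substrate is not settled, was at 43.6 and 72.3 TPM in KO 1 and KO 2 and at 86.7 and 62.5 TPM in WT 1 and WT 2. Both libraries of prefix S2, KO 2 and WT 1, were above both of prefix S1 for Slc25a35.

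Among the calcium-dependent ATP-Mg/phosphate carriers, which set the size of the adenine nucleotide pool in the matrix, Slc25a23 led with a mean of 49.8 TPM, ahead of Slc25a25 with 7.45 TPM and Slc25a24 with 1.37 TPM. Amino acid carriers held 3.60% of the family. Slc25a22, a glutamate carrier, averaged 40.4 TPM and Slc25a26, which imports S-adenosylmethionine, 14.6 TPM. Slc25a38, the glycine carrier of haem synthesis, averaged 9.79 TPM and Slc25a15, the ornithine carrier, 5.53 TPM. The aspartate/glutamate carriers of the malate-aspartate shuttle were low: Slc25a12 (aralar) averaged 3.50 TPM and Slc25a13 (citrin) 0.169 TPM. Of the iron carriers, Slc25a28 (mitoferrin 2) averaged 22.8 TPM and Slc25a37 (mitoferrin 1, known from red cell precursors) 3.14 TPM. The leading Slc25a28 transcript is not annotated as coding and averaged 13.0 TPM, while the main coding transcript averaged 7.33 TPM. The members nearest to the uncoupling proteins, Slc25a14, Slc25a27 and Slc25a30, held 0.272% of the family together. Slc25a46, an outer membrane protein of mitochondrial shape, averaged 16.2 TPM.

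Few neighbours in the order of levels stood apart. A carrier was called distinct from the next lower one when their ranges over the 4 libraries did not overlap. That was so for Slc25a3 over Slc25a4, Slc25a42 over Slc25a51, Slc25a11 over Slc25a35, Slc25a22 over Slc25a34, Slc25a28 over Slc25a33 and Slc25a27 over Slc25a13. Near the top, the range of Slc25a39 overlapped with that of Slc25a5 and with that of Slc25a3. At the low end, 8 carriers averaged under 1 TPM. They were Slc25a13, Slc25a43, Slc25a18, Slc25a2, Slc25a21, Slc25a41, Slc25a31 and Slc25a54, of which Slc25a54 had 0 counts in every library. The last 7 of these had too few counts to be tested, which left 37 carriers.

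Between KO and WT no carrier passed the test. Counts were compared by edgeR's quasi-likelihood method with genotype as the sole term, and p was adjusted over all 15643 genes tested (threshold 0.05). Values per library are CPM, counts scaled to a total of 1e+06 after TMM scaling. It called 0 of 37 carriers, against a background of 0.78% of all genes (122, of which 120 were higher in KO). At an unadjusted p under 0.05 it gave 3 carriers, Slc25a12 and Slc25a34 higher and Slc25a10 lower, against 629 genes (4.02%). The median log2 fold change, KO over WT, was -0.02 over the carriers (range -0.98 to 1.67) and 0.00 over all genes. For 31 of 37 carriers it lay within 0.32 of 0. In CPM both KO libraries were above both WT for 5 carriers (Slc25a3, Slc25a4, Slc25a12, Slc25a34 and Slc25a38) and below for 2 (Slc25a10 and Slc25a53). Of all genes 26.3% did not overlap, 13.2% higher and 13.1% lower. In TPM, Slc25a3, Slc25a4, Slc25a38 and Slc25a53 overlapped between the genotypes. With the prefix as a block edgeR called 3 carriers, Slc25a12 and Slc25a34 higher and Slc25a25 lower, against 2.05% of all genes (320), of which 1.57% were higher and 0.473% lower. That fit leaves 1 residual degree of freedom, so its errors rest mostly on spread pooled across genes. No label states whether the libraries come from different animals, so every p measures the spread between libraries, which may be technical.

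**Figure D3:**
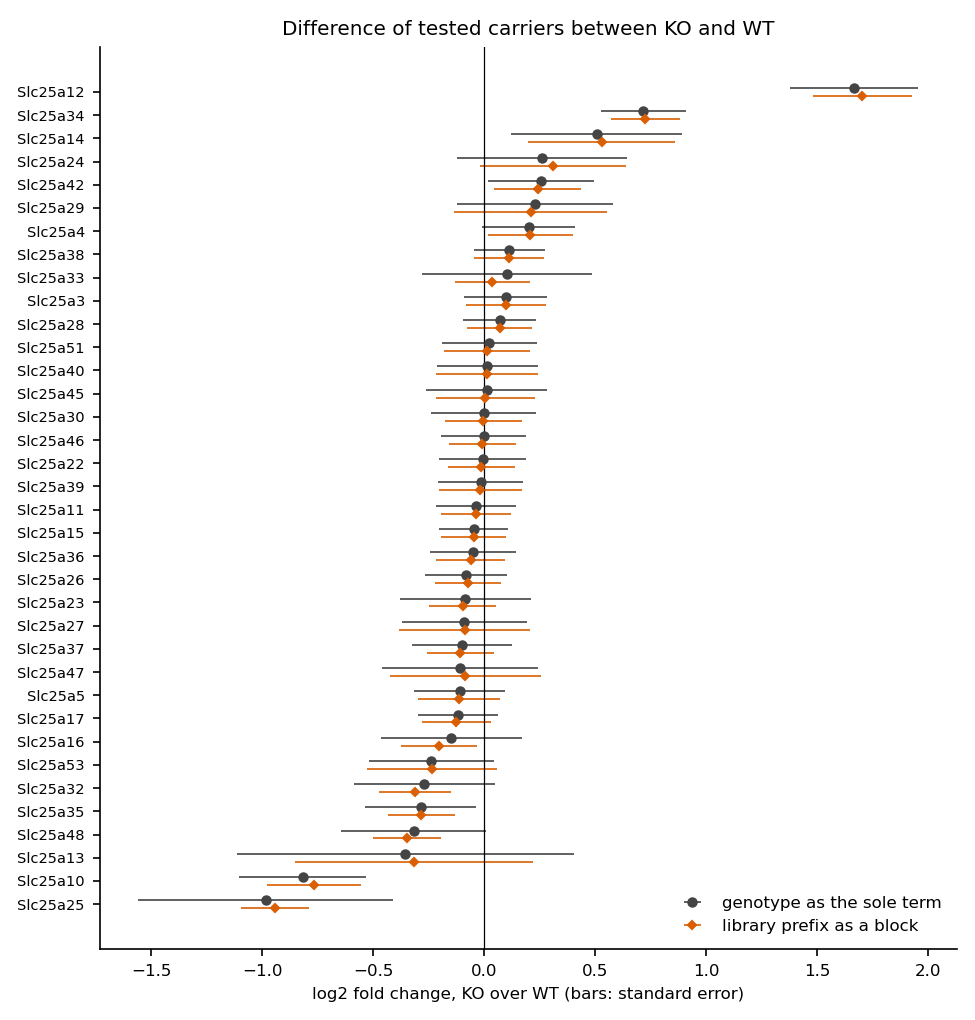
log2 fold change, KO over WT, of tested carriers with its standard error (bars), from the edgeR fit with genotype alone (circles) and with the library prefix as a block (diamonds). Most carriers sit within 0.32 of 0, with Slc25a12 and Slc25a34 at the high end and Slc25a10 and Slc25a25 at the low end.

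The carriers of highest level differed little between the genotypes. Slc25a5 was at 305 and 357 CPM in KO 1 and KO 2, against 376 and 338 CPM in WT 1 and WT 2, a log2 fold change of -0.11 (SE 0.20). Slc25a39 had a log2 fold change of -0.02 (SE 0.19) and Slc25a51 one of 0.02 (SE 0.21). The largest in size among the 10 highest carriers were Slc25a35 with -0.28 (SE 0.25), Slc25a42 with 0.26 (SE 0.24) and Slc25a4 with 0.20 (SE 0.21). Slc25a42 was at 430 and 583 CPM in KO 1 and KO 2, against 449 and 399 CPM in WT 1 and WT 2, so WT 2 was lowest in CPM. Its difference was 0.11 within S1 and 0.38 within S2 on the log2 scale. Slc25a4 was at 373 and 353 CPM in KO 1 and KO 2, against 349 and 283 CPM in WT 1 and WT 2. Its groups did not overlap in CPM, but the difference was 0.40 within S1 and 0.02 within S2 on the log2 scale. Slc25a3, with 321 and 323 CPM in KO 1 and KO 2 against 298 and 304 CPM in WT 1 and WT 2, had 0.10 (SE 0.19) as a whole gene. Slc25a11 had -0.04 (SE 0.18) and Slc25a17 -0.12 (SE 0.18).

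Slc25a12 had the largest difference of the family. This gene (chromosome 2, 71271063 to 71367749, minus strand) encodes aralar, the aspartate/glutamate carrier known from muscle and brain. It was at 12.9 and 13.0 CPM in KO 1 and KO 2, against 2.99 and 5.12 CPM in WT 1 and WT 2. Both KO libraries were well above both WT libraries and close to each other. The log2 fold change was 1.67 (SE 0.29), short of the threshold in edgeR without a block (adjusted p = 0.129, unadjusted p = 0.00138). Blocking by prefix gave 1.71 (SE 0.22) and a call (edgeR adjusted p = 0.00142). It was 1.32 within S1 and 2.09 within S2. Over the 11 alternatives it ranged from 1.25 to 2.11 and passed in 5, among them the edgeR fit without WT 2 and DESeq2, for which Slc25a12 was the 1 carrier called, against 1.39% of all genes. The skeletal muscle markers had the same order of genotypes, and their part in the difference was not tested. Slc25a13, the other aspartate/glutamate carrier, was at 0.586 and 0.206 CPM in KO 1 and KO 2, against 0.255 and 0.735 CPM in WT 1 and WT 2, and overlapped between genotypes.

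Most Slc25a12 transcript abundance did not lie in its full coding form. The coding transcript of 6351 bases took 14.5% and 12.4% of the gene's TPM in KO 1 and KO 2 and 19.6% and 15.6% in WT 1 and WT 2. The leading transcript, annotated for nonsense-mediated decay, took 56.5% and 56.8% in KO 1 and KO 2 and 74.5% and 39.9% in WT 1 and WT 2. It is 2392 bases long and, among other differences from the coding transcript, lacks an exon of 116 bases, a length that leaves a remainder of 2 when divided by 3. That exon is shown because the leading transcript lacks it (chr2:71333605-71333720, minus strand, GRCm38, in lower case throughout as no base is singled out).
Slc25a12 exon: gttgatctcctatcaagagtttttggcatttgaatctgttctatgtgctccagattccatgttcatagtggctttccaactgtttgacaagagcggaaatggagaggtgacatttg
The coding transcript itself was at 0.693 and 0.715 TPM in KO 1 and KO 2, against 0.196 and 0.379 TPM in WT 1 and WT 2, so its genotypes did not overlap either. These splits are kallisto's estimates from few reads.

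Slc25a34 (chromosome 4, 141618824 to 141623821, minus strand), a carrier whose substrate is not settled, was at 85.3 and 83.5 CPM in KO 1 and KO 2, against 45.3 and 57.4 CPM in WT 1 and WT 2. The groups did not overlap. On the log2 scale KO exceeded WT by 0.72 (SE 0.19), which edgeR without a block did not call (adjusted p = 0.579). Blocking by prefix gave 0.73 (SE 0.16) and a call (edgeR adjusted p = 0.0427). It was 0.57 within S1 and 0.88 within S2, and 0.56 to 0.90 with 1 library left out. The part of the skeletal muscle RNA in the KO libraries was not tested here either.

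Slc25a10, the dicarboxylate carrier, which is abundant in white fat, was at 9.46 and 10.1 CPM in KO 1 and KO 2, against 12.6 and 21.8 CPM in WT 1 and WT 2. The groups did not overlap, and WT 2 was far above the rest. The log2 fold change was -0.82 (SE 0.29) and passed neither without a block (edgeR adjusted p = 0.9998, unadjusted p = 0.0307) nor after blocking by prefix (adjusted p = 0.144). It was -0.37 without WT 2 and -1.16 without WT 1. The 4 white adipocyte markers summed to 51.7 and 92.5 TPM in KO 1 and KO 2, against 193 and 184 TPM in WT 1 and WT 2, with 3 of 4 lower in both KO libraries and none at 0. Their part in the Slc25a10 values was not tested.

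Slc25a25 (chromosome 2, 32414487 to 32451445, minus strand), a calcium-dependent ATP-Mg/phosphate carrier, was at 7.78 and 17.9 CPM in KO 1 and KO 2, against 37.4 and 13.6 CPM in WT 1 and WT 2. The genotypes overlapped, since KO 2 was above WT 2, but KO was below WT within each prefix, by 0.80 within S1 and 1.06 within S2 on the log2 scale. The log2 fold change was -0.98 (SE 0.57) without a block (edgeR adjusted p = 0.9998), and blocking by prefix gave -0.94 (SE 0.15) and a call (adjusted p = 0.00764). The unblocked value rested on WT 1: leaving out WT 1 gave -0.08, and leaving out WT 2 gave -1.54 and a call (adjusted p = 0.0453).

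**Figure D4:**
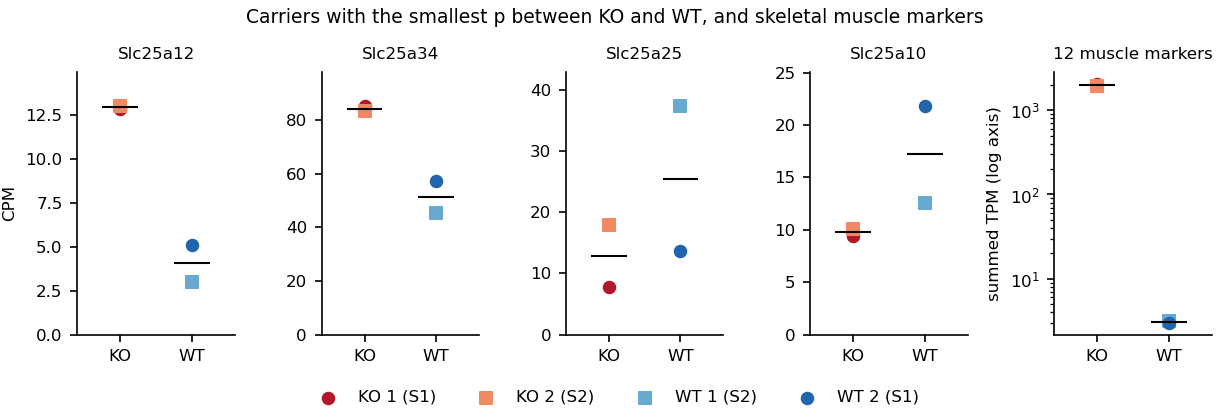
CPM in each library of Slc25a12, Slc25a34, Slc25a25 and Slc25a10, with KO left of WT (line: mean of 2 libraries; circles S1, squares S2), and the summed TPM of 12 skeletal muscle markers on a log axis. Slc25a12 sits at 12.9 and 13.0 CPM in KO and at 2.99 and 5.12 CPM in WT, while for Slc25a25 the S2 library is the higher in each genotype.

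Between the prefixes the median size of the carriers' log2 fold changes was 0.23, against 0.11 between the genotypes; over all genes these medians were 0.26 and 0.15. In edgeR with the prefix as the sole term 0 of 37 carriers passed, against 0.00639% of all genes (1 gene), and 10 had an unadjusted p under 0.05, against 2417 genes (15.5%). The median log2 fold change, S2 over S1, was 0.06 over the carriers (range -1.51 to 1.37) and -0.01 over all genes. Both S2 libraries were above both S1 libraries for 14 carriers and below for 9, while 53.2% of all genes did not overlap, 27.3% higher and 25.9% lower. With genotype as a second term 3 carriers passed, Slc25a25 and Slc25a48 higher in S2 and Slc25a33 lower, against 3.14% of all genes (491), of which 1.59% were higher and 1.55% lower. That fit too leaves 1 residual degree of freedom, so its errors rest mostly on spread pooled across genes. Erythroid markers moved with the prefix for 4 of 6 genes, all lower in S2, and summed to 1998 and 2434 TPM in KO 2 and WT 1 (S2) and to 3987 and 2478 TPM in KO 1 and WT 2 (S1), with none at 0 in every library. Endothelial markers (4 of 5 genes) and lymphocyte markers (4 of 5) were also lower in both S2 libraries, and macrophage markers higher (3 of 5). The remaining endothelial marker, Cldn5, was higher in S2, with 55.4 and 57.2 TPM in KO 2 and WT 1 and 19.9 and 12.4 TPM in KO 1 and WT 2. Endothelial markers summed to 217 and 197 TPM in KO 2 and WT 1 and to 248.7 and 229.8 TPM in KO 1 and WT 2, and lymphocyte markers to at most 3.97 TPM in any library. Macrophage markers summed to 166 and 220 TPM in KO 2 and WT 1 and to 53.2 and 161 TPM in KO 1 and WT 2. Of the 8 brown adipocyte markers, 3 were lower and 1 higher in both S2 libraries. The part of these cell types in the carriers' values was not tested.

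Slc25a25 had the largest positive difference between the prefixes, with 17.9 and 37.4 CPM in KO 2 and WT 1 (S2) and 7.78 and 13.6 CPM in KO 1 and WT 2 (S1). The log2 fold change was 1.37 (SE 0.44, edgeR adjusted p = 0.289) with the prefix alone and 1.34 (SE 0.15, adjusted p = 0.00266) with genotype as a second term. It was 1.20 within KO and 1.45 within WT. Its main coding transcript was at 3.02 and 7.93 TPM in KO 2 and WT 1, and at 1.68 and 2.27 TPM in KO 1 and WT 2. A shorter coding transcript was at 3.05 and 3.84 TPM in KO 2 and WT 1, and at 0.295 and 1.69 TPM in KO 1 and WT 2. These coding transcripts were thus higher in both S2 libraries. A further coding transcript, Slc25a25-201, was not, with 0.382 and 0.452 TPM in KO 2 and WT 1 and 0.284 and 0.884 TPM in KO 1 and WT 2. Of the leading transcript's 31-base stretches, 10.7% lie on the strand opposite to Naif1, and the strand setting of the counting is not named in the labels.

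The bases before a RefSeq start of Slc25a25 are shown because they hold a full cyclic AMP response element, TGACGTCA, the site of CREB-type factors. The gene has 3 promoter windows, and which of its transcripts starts at this window was not examined. The window is the 250 bases upstream at chr2:32424067-32424316 (minus strand, GRCm38.p6, RefSeq), with the element in capitals, its first base 150 bases before the start.
Slc25a25 promoter: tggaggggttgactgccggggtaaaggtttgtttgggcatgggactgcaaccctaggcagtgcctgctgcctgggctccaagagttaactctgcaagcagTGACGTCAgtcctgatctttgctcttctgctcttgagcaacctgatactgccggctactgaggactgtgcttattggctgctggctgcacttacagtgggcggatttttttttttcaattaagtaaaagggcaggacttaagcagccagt
Searched on both strands, TGACGTCA occurred in 1.79% of the 32841 promoter windows given and in those of Slc25a25 and Slc25a36 among 34 carriers with a window. The ATF4 response element cores TGATGCAA and TGATGAAA occurred in 0.895% and 1.02% of all windows and in none of the 44 carrier windows. The ERR element TCAAGGTCA (0.423% of all windows) and the NRF1 core palindrome (0.971%) also had no match in a carrier window. A match or its absence describes these letters only.

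Slc25a33 (chromosome 4, 149744036 to 149774277, minus strand), a pyrimidine nucleotide carrier, was at 19.5 and 23.0 CPM in KO 2 and WT 1 (S2), against 41.0 and 33.3 CPM in KO 1 and WT 2 (S1). Both S2 libraries were below both S1 libraries. The log2 fold change was -0.81 (SE 0.16, edgeR adjusted p = 0.277) with the prefix alone and -0.80 (SE 0.17, adjusted p = 0.0355) with genotype as a second term, with -1.07 within KO and -0.53 within WT. Slc25a48 (chromosome 13, 56438355 to 56474239, plus strand), reported to import choline, was at 57.6 and 66.9 CPM in KO 2 and WT 1, against 33.1 and 46.1 CPM in KO 1 and WT 2. Its log2 fold change was 0.65 (SE 0.19) with the prefix alone and 0.67 (SE 0.15, edgeR adjusted p = 0.0481) with genotype as a second term. Slc25a48 was higher in S2 within both genotypes, by 0.80 in KO and 0.53 in WT. With 1 library left out, the log2 fold change by prefix alone was 0.43 to 0.91 for Slc25a48. For Slc25a33 it was -0.95 to -0.65.

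Other carriers showed a like split by prefix without passing in these fits. Slc25a23 was at 160 and 165 CPM in KO 2 and WT 1 and at 103 and 114 CPM in KO 1 and WT 2, a log2 fold change of 0.58 (SE 0.12), and DESeq2 called it, along with Slc25a25 and Slc25a33, against 3.5% of all genes. Slc25a16 was at 37.8 and 35.9 CPM in KO 2 and WT 1 and at 20.4 and 28.6 CPM in KO 1 and WT 2 (0.59, SE 0.19). Slc25a32 was at 20.0 and 21.4 CPM in KO 2 and WT 1 and at 11.1 and 16.1 CPM in KO 1 and WT 2 (0.61, SE 0.20). In these carriers both S2 libraries lay above both S1 libraries. Slc25a37, mitoferrin 1, went the other way, with 13.1 and 14.8 CPM in KO 2 and WT 1 and 18.0 and 18.5 CPM in KO 1 and WT 2 (-0.39, SE 0.12). Slc25a14, an uncoupling protein relative, was at 2.50 and 1.98 CPM in KO 2 and WT 1 and at 1.95 and 1.17 CPM in KO 1 and WT 2 (0.53, SE 0.37). Slc25a13 had the lowest value of the family, -1.51 (SE 0.43), at under 1 CPM in every library. Among the carriers of highest level, Slc25a35 had 0.45 (SE 0.17), Slc25a42 had 0.32 (SE 0.16), Slc25a5 had 0.19 (SE 0.12) and Slc25a39 had 0.06 (SE 0.11), each with both S2 libraries above both S1 libraries. Slc25a4 had 0.10 (SE 0.17), Slc25a51 0.14 (SE 0.14), Slc25a17 0.12 (SE 0.13), Slc25a11 -0.01 (SE 0.13) and Slc25a3 -0.01 (SE 0.12), and these overlapped between prefixes.

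**Figure D5:**
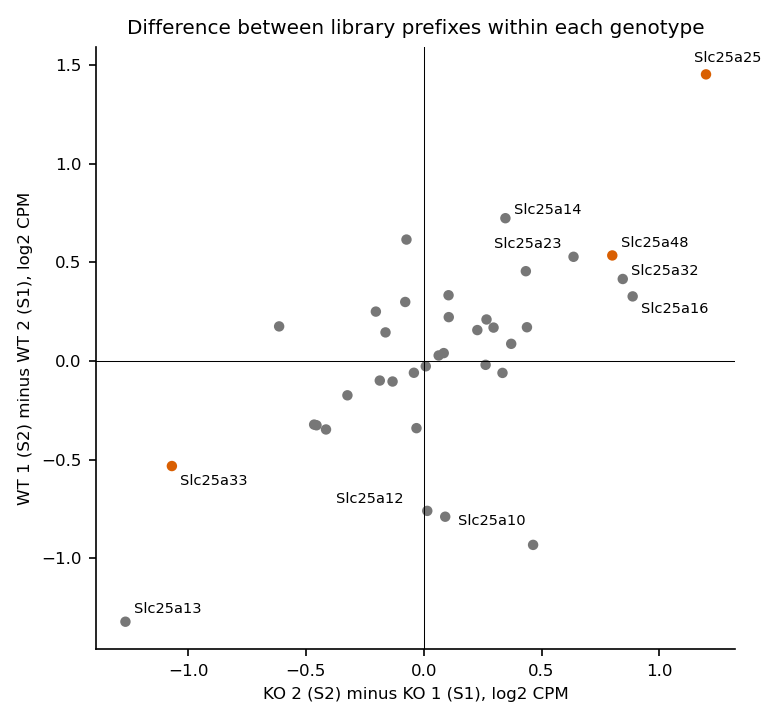
Difference in log2 CPM between the S2 and S1 library within KO (horizontal axis) and within WT (vertical axis) for the 37 tested carriers; orange points passed edgeR with genotype as a second term. Slc25a25 lies at the top right, at 1.20 and 1.45, and Slc25a33 at the lower left, at -1.07 and -0.53.

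Of the 22 other transport and carrier-import genes examined, none passed edgeR in either comparison, with or without the second term. They were the pyruvate carrier subunits Mpc1 and Mpc2, the porins Vdac1 to Vdac3, the sideroflexins, Mtch1 and Mtch2, and subunits of the TIM22 and TOM import machinery. Between KO and WT 0 had an unadjusted p under 0.05 in edgeR, against 4.02% of all genes, and the median log2 fold change was 0.03 (range -0.16 to 0.29). The 4 with the smallest p were the sideroflexins Sfxn4, Sfxn1 and Sfxn3 and the import chaperone Timm10b. Between the prefixes 4 of 22 (18.2%) had an unadjusted p under 0.05, close to the 15.5% of all genes. Of these, Mpc1 (log2 fold change 0.35, SE 0.11) and Vdac1 (0.50, SE 0.12) were higher in S2, and Timm10b (-0.65, SE 0.15) and Sfxn3 (-0.53, SE 0.16) were lower. At means of 1228 and 701 TPM, Mpc1 and Mpc2 stood above every SLC25 carrier in the set.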

How the data were processed

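RNA extraction used TRIzol and RNeasy columns and libraries the stranded TruSeq mRNA chemistry, per the labels' protocols. The submitters' processing notes name kallisto 0.45.0 and build mm10; the labels name no strand setting or transcript set. An estimated count and a TPM value per transcript are what the authors deposited, per the file headers. Here estimated counts were summed per gene (GENCODE vM21, GRCm38) and rounded; 3259 of 141450 transcripts were unmatched (0.992 to 1.04% of counts) and left out. Deposited TPM was summed per gene for levels. kallisto divides reads that fit several transcripts, so transcript shares are model estimates.

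Tests used edgeR 4.0.16 in R 4.3.3 (quasi-likelihood, TMM, filterByExpr with a minimum count of 10, adjusted p by Benjamini-Hochberg). A run on simulated counts checked only the sign and size of fold changes. Those counts had a set spread and no difference for the other factor, unlike these libraries, so the run does not measure false calls here. Within-prefix and within-genotype differences are log2 CPM with a prior count of 2. DESeq2 1.42.0, limma 3.58.1 on log2(TPM + 1), another scaling, no filter, no mitochondrial genes, blocks and each library left out were alternatives. A rule took 22 carriers for values per library: the 10 highest in TPM, those called in a fit, the 8 of smallest p in each comparison and 6 chosen ones. Of these, 1 is not reported here, though it enters the family's sums and counts. Members, lists and this rule were chosen with earlier results of these data known. Promoter windows are from RefSeq (GRCm38.p6); exons were aligned with Biopython 1.88.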

Additional observations from a re-analysis of the deposited data

How the results depend on the processing

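Scaling by DESeq2 size factors, limma on TPM and leaving out mitochondrial genes left the counts of called genes within 1.5 times. Between KO and WT, the genes called were 122 and became 457 without the filter, 218 with DESeq2, 320 with the prefix as a block and 78 (without KO 2) to 205 (without WT 2) with 1 library left out, with 187 without WT 1. Carriers called were 0 and became 3 without the filter, 1 with DESeq2 (Slc25a12), 1 with the replicate number as a block, 3 with the prefix as a block and 0 to 2 with 1 library left out, the 2 without WT 2 being Slc25a12 and Slc25a25. Between S2 and S1, the genes called were 1 and became 823 without the filter, 548 with DESeq2, 491 with genotype as a second term, 0 with the replicate number as a block and 0 to 1 with 1 library left out (0 without KO 1, KO 2 or WT 1). Carriers called were 0 and became 5 without the filter, 3 with DESeq2 and 3 with genotype as a second term. The 6 highest carriers held 69.3% by counts per kilobase. The cause of these moves was not tested. The sign of the log2 fold change was the same under every alternative for 10 of the 22 carriers of the naming rule between KO and WT and for 15 of 22 between S2 and S1.

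Whether the replicate number pairs the libraries is not stated in the labels. Deviations from the genotype means correlated by -0.38 for the same number and 0.38 for the same prefix. With 2 libraries a group these values must mirror each other, so only the sign is free. Here deviations went together by prefix rather than by number. The labels do not explain the prefix, so this does not show how the libraries were paired by design. The prefix as a block is the crossed pairing. With the replicate number as a block 164 genes were called between KO and WT.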
